A study of Mus musculus with 8 samples.

Results

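Imprinted genes are transcribed mainly or only from the copy inherited from 1 parent. The set described here holds 40 mouse imprinted genes, taken as a list of symbols and matched by gene identifier to the rows of a table of 55401 genes. All 40 were in the table and 39 had enough counts to be tested. Of the 40, 21 are listed as expressed from the paternal copy and 19 from the maternal copy. The listing is not particular to lung, since some genes are imprinted only in certain tissues, and the copy expressed here was not measured. They were measured by stranded messenger RNA sequencing of mouse lung at E13.5 (E for embryonic day), when the airway tree is branching. The controls were 4 libraries that the labels call cre control. The mutants were 4 libraries that carried the transgenes written Tbx4tetOcre with the Myrf allele written MyrfE6. The labels give neither the transgenes of the controls nor the nature of the allele, and Tbx4 is a gene of lung mesenchyme, where transgenes bearing its name are commonly used to drive Cre. The labels also leave out sex, litter and the number of embryos per library, so a p-value here covers no more than the spread among these 8 libraries, which may be technical.

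In imprinted clusters, a control region carries DNA methylation on the copy from 1 parent, set in the germ line and kept through early development by the zinc finger protein ZFP57 and its partner TRIM28. The methylated and unmethylated copies then direct opposite patterns of expression across neighbouring genes, often through a long non-coding RNA or an insulator. Many imprinted genes act in fetal growth: Igf2, Peg3, Dlk1 and Plagl1 belong to this group, as do Igf2r, Grb10 and Cdkn1c on the maternal side. The counts do not separate the parental copies, so every level below is the sum of both. In whole lung, fewer cells of a type and less RNA per cell cannot be told apart.

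The control regions of these clusters are rich in CpG, and the hexamer TGCCGC holds the sequence that ZFP57 binds when it is methylated. Promoter windows from RefSeq on GRCm38 (250 bases before to 50 after each start) were at hand for 33 of the 40 genes. These windows were placed by gene starts and need not hold the control regions. TGCCGC, searched on both strands, stood in 7 of the 33 windows (21.2%) and in 11.6% of all 32841 windows. The median number of CpG per window was 12 in the imprinted genes and 7 in all windows. The hexamer itself holds a CpG, so the shares were not compared at equal CpG. The stretches before the start are shown for genes on which the results turn, 5′ to 3′ on the strand of the gene with the hexamer or its complement GCGGCA in capitals. Slc38a4 (chr15:97055957-97056206, minus strand) and Asb4 (chr6:5383136-5383385, plus strand) hold 3 and 4 CpG. Meg3 (chr12:109540746-109540995, plus strand) and Plagl1 (chr10:13090582-13090831, plus strand) hold 10 and 19, and 1 match each. The RefSeq start used for Plagl1 lies 30328 bases from the start of that gene in the deposited table. The last line is the interval between the divergent starts of Peg3 and Usp29 (chr7:6730420-6730582, written on the plus strand), with 5 CpG and no match. It spans 163 bases between the RefSeq starts, which differ from those of the deposited table by 12 bases for Peg3 and 5 for Usp29.
Slc38a4: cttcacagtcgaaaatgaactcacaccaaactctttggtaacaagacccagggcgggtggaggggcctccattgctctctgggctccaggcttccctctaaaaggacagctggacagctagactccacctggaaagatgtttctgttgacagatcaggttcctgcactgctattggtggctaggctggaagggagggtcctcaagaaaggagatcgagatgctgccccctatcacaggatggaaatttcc
Asb4: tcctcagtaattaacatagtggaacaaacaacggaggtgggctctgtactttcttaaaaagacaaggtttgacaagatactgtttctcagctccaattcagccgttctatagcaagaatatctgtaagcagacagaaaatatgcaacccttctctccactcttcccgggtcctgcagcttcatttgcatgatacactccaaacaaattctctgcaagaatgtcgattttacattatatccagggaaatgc
Meg3: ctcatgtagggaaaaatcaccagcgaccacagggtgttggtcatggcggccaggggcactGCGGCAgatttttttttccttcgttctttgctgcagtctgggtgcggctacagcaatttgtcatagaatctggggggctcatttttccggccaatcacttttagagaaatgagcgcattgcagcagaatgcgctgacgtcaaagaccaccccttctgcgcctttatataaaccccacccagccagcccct
Plagl1: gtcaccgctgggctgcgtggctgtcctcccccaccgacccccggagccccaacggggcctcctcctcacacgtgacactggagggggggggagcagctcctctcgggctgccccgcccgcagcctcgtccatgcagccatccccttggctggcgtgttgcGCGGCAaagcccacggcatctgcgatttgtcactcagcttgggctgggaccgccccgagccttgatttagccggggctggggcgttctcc
Peg3-Usp29: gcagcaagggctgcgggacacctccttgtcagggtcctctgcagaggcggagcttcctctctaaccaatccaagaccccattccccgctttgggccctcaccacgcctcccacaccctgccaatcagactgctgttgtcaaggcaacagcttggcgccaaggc

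The levels of the imprinted genes spanned a wide range in the control lung, and their summed level was much alike in the groups. Levels are given as counts scaled to library size (CPM, the usual counts per M with M for mega), or also to kilobases of exon (RPKM) where genes are compared with each other. H19, a long non-coding RNA of the Igf2 cluster, was highest at 1766 ± 72.2 RPKM in control libraries (SD, n = 4). Leaving out Igf2, whose exons were counted only in part, it was followed by Mest at 275.9 ± 15.7, Cdkn1c at 194.7 ± 13.95, Nnat at 173 ± 10.8 and Grb10 at 165 ± 7.15 RPKM. Nnat and Grb10 differed by less than the SD of Nnat. The lowest levels were those of Tfpi2 at 0.255 ± 0.0825 and Calcr at 0.124 ± 0.0263 RPKM. Summed over the set, the level was 14200 to 14700 CPM in control and 14200 to 14400 CPM in mutant libraries. The genes listed as maternally expressed, which include Gnas with products of either copy, summed to 10300 to 10700 CPM in control and 10500 to 10600 CPM in mutant libraries. The paternally expressed genes summed to 3860 to 4160 CPM in control and 3730 to 3830 CPM in mutant libraries, ranges that do not overlap. The largest difference within these sums was that of Plagl1 alone, with means of 552 and 412 CPM, a gene that did not pass the test below. The separation of the sums is thus no result about paternally expressed genes as a class. The maternal and paternal sums cannot be set against each other, since the count of the paternally expressed Igf2 is incomplete.

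**Figure D1:**
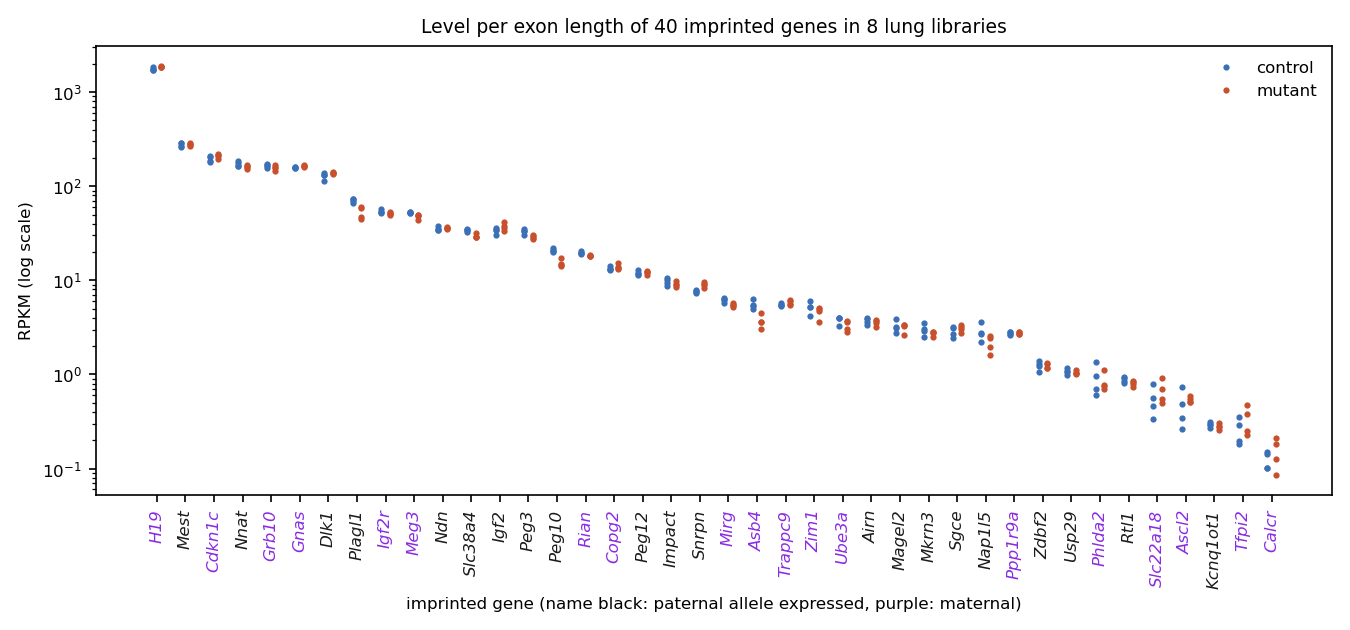
Level per exon length (RPKM, log scale) of the 40 imprinted genes in every library, ordered by the control mean; blue points are 4 control and red points 4 mutant libraries, and name colour marks the expressed parental copy. H19 stands above the rest at 1766 RPKM in control, and Tfpi2 and Calcr lie lowest.

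In the mutant lung 4 imprinted genes fell and 0 rose: Peg10, Asb4, Slc38a4 and Peg3. That is 10.3% of the 39 tested, where 1.49% of all 15788 tested genes changed, 0.931% falling and 0.564% rising (edgeR quasi-likelihood test, adjusted p below 0.05). The set was chosen with earlier results of these data known, so these shares are no test of imprinted genes as a class. Of 33 other imprinted genes that were tested, 1 rose and 0 fell (3.03%). At an unadjusted p below 0.05 there were 15 of the 39 (38.5%), where 13.9% of all tested genes had such a p. Over the 39 genes, 16 log2 fold changes (mutant over control) were positive and 23 negative, with a median of -0.05, against a median of 0.00 over all genes (6.5e-05). The control and mutant ranges were apart in 9 of the 39 genes (23.1%), 8 lower and 1 higher, where 7.37% of all tested genes had such ranges, 4.06% lower and 3.31% higher. The 21 paternally expressed genes held 3 of the calls, with 7 positive and 14 negative log2 fold changes and a median of -0.05. The 18 tested maternally expressed genes held 1, Asb4, with 9 positive and 9 negative and a median of -0.02. A difference between paternal and maternal genes was not tested.

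**Figure D2:**
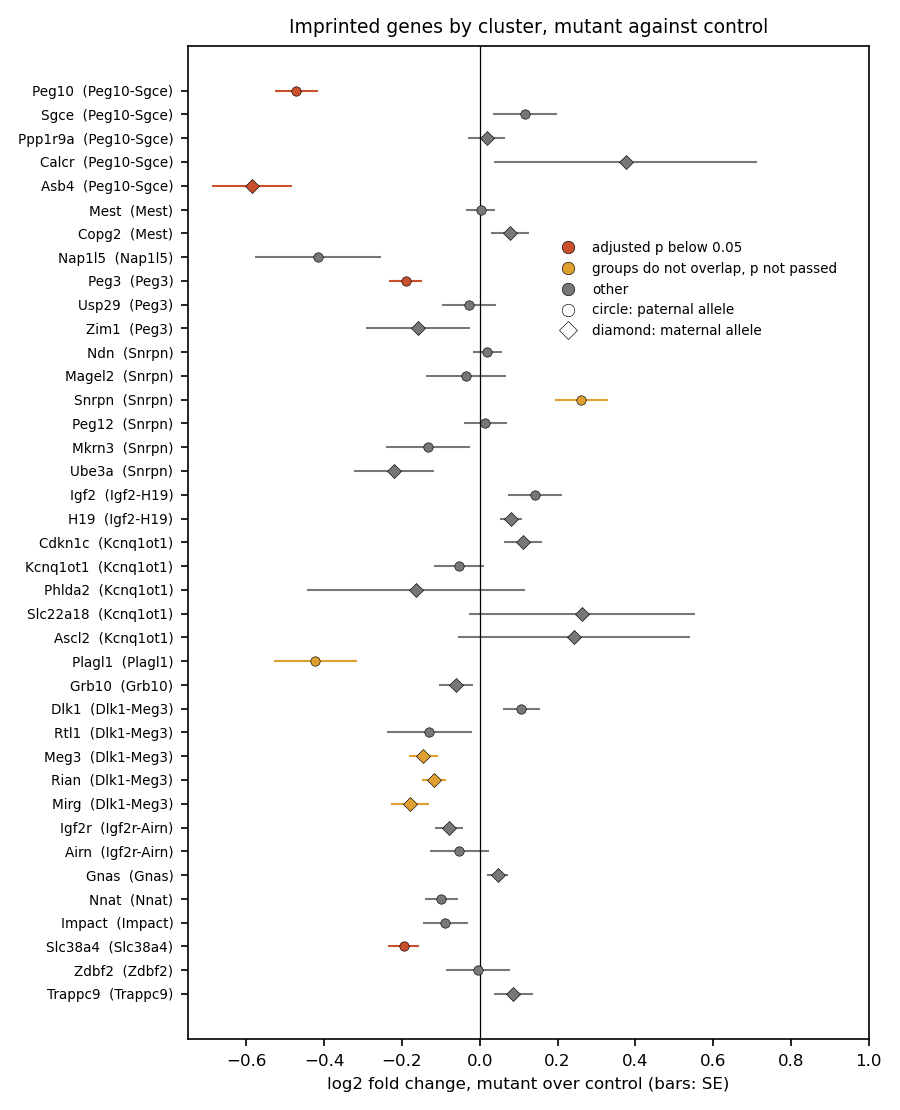
Log2 fold change, mutant over control, of the 39 tested imprinted genes with its standard error (bars), grouped by cluster; circles are paternally and diamonds maternally expressed genes. The 4 genes with an adjusted p below 0.05 (red) lie left of 0, and Snrpn is the 1 gene to the right of 0 among those whose groups do not overlap.

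Library differences that touch these values were measured first. Myrf, the targeted gene, was lower in every mutant library (84.4 to 92.4 CPM) than in any control (107 to 120.5 CPM); its counts sum all exons. Xist, made from the inactive X of females, was at 863 to 869 CPM in control replicates 2 and 3, where the Y-linked genes summed to at most 0.0562 CPM. In mutant replicates 1 and 2 Xist was at 0.37 to 0.596 CPM and the Y-linked genes at 134 to 144 CPM. The other 4 libraries, control replicates 1 and 4 and mutant replicates 3 and 4, had both, with Xist at 350 to 403 and Y-linked genes at 64.2 to 76.2 CPM, and are called double-positive below. The groups thus differ in their sex-linked transcripts, and results are given also for the 4 double-positive libraries, a choice made after the data were seen. Lung identity was present in both groups: Nkx2-1 measured 175.5 ± 12.3 and 187.8 ± 7.92 CPM, and Sftpc 78.6 ± 11.3 and 74.9 ± 4.99 CPM. Of 8 tested mesothelium markers 4 fell (Upk3b, Wt1, Gpm6a and Lrrn4), and the list summed to 216 to 231 CPM in control and 159 to 193 CPM in mutant libraries. Single calls stood in the lists of epithelium (Sox2, higher, of 7), endothelium (Emcn, higher, of 5), nerve and neural crest (Ret, higher, of 6) and macrophages (Mrc1, lower, of 4), and none in the other lists. Summed levels of nerve markers were 27.6 to 31.8 CPM in control and 35.3 to 43.3 CPM in mutant libraries. Those of epithelium (782 to 837 and 820 to 868 CPM), endothelium (611 to 677 and 657 to 711 CPM) and macrophages (67.6 to 77.9 and 65.6 to 69.9 CPM) overlapped. So did mesenchyme (2680 to 3400 and 2840 to 3570 CPM), smooth muscle (926 to 1020 and 1010 to 1110 CPM), red blood cells (2100 to 2510 and 2020 to 2300 CPM) and cartilage (190 to 206 and 166 to 191 CPM). Of the neighbouring tissues, liver (2.43 to 7.5 and 4.25 to 20.5 CPM) and skeletal muscle (4.96 to 5.36 and 5.05 to 9.17 CPM) had low sums. Heart markers summed to 52.7 to 88.8 CPM in control and 71.1 to 124 CPM in mutant libraries, above the nerve markers in both groups. The 3 tested heart markers had positive log2 fold changes (median 0.77), and none passed. Of these, Myh6 was uneven, at 2.2 to 9.88 CPM in control and 2.42 to 33.8 CPM in mutant libraries, highest in mutant replicate 1. The part of any of these differences in the results below was not tested.

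Peg10 and Asb4, which lie in the same cluster on proximal chromosome 6, had the largest falls of the 4. None of the other tested genes of the set in this cluster passed the test. Peg10 is a retrotransposon-derived gene needed for the placenta, expressed from the paternal copy (chromosome 6, 4747306 to 4760517, plus strand). It measured 148, 132, 138 and 141.5 CPM in control replicates 1 to 4, and 100.2, 96.4, 93.8 and 114 CPM in mutant replicates 1 to 4. The highest mutant library lay below the lowest control. The mean fell from 139.8 ± 6.55 to 101 ± 9.02 CPM (SD, n = 4), which is 27.7% lower, with a log2 fold change of -0.47 (SE 0.0546 and adjusted p = 0.000553, edgeR). Asb4, a maternally expressed subunit of a ubiquitin ligase (chromosome 6, 5383386 to 5433022, plus strand), measured 21.5, 19.3, 21.1 and 25.0 CPM in controls and 14.2, 14.2, 12.1 and 17.7 CPM in mutants. Again the groups did not overlap, and mutant replicate 4 was the highest mutant for both genes. The mean fell from 21.7 ± 2.41 to 14.5 ± 2.32 CPM, 33.1% lower, with a log2 fold change of -0.59 (SE 0.104 and adjusted p = 0.0128, edgeR).

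The levels of the other genes of the set in this cluster differed by less than the spread. Sgce, a paternally expressed sarcoglycan that starts on the other strand beside Peg10 (chromosome 6, 4674350 to 4747207), measured 26.1, 28.6, 34.1 and 33.04 CPM in controls and 34.2, 35.6, 32.2 and 29.3 CPM in mutants. Its log2 fold change was 0.12 (SE 0.0823 and adjusted p = 0.59, edgeR), and the groups overlapped. Ppp1r9a, the maternally expressed neurabin gene that lies between Peg10 and Asb4 (chromosome 6, 4902917 to 5165661), measured 39.7 ± 1.46 and 40.2 ± 1.02 CPM. Calcr, the calcitonin receptor, and Tfpi2, a protease inhibitor that was not tested, were close to the detection limit. Calcr measured 0.484 ± 0.103 and 0.589 ± 0.217 CPM and Tfpi2 0.446 ± 0.144 and 0.578 ± 0.203 CPM. In the 4 double-positive libraries the log2 fold changes of Peg10 and Asb4 were -0.47 and -0.65, with the calls lost (adjusted p = 0.0607 and 0.266; 2.57e-25 to 0.0607 and 4.01e-10 to 0.266 over 20 alternatives each). Asb4 also lost its call with the linear Y-linked level as a covariate (adjusted p = 0.089).

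Peg3, the other large paternally expressed gene with a divergent neighbour, also fell. It encodes a zinc finger protein (chromosome 7, 6703892 to 6730431, minus strand) and is known for its role in fetal growth and maternal care. Peg3 measured 454, 451, 476 and 409.9 CPM in controls and 381, 403.5, 409 and 376 CPM in mutants. Control replicate 4 lay within 1 CPM of mutant replicate 3, and the groups did not overlap. The mean fell from 448 ± 27.7 to 392 ± 16.3 CPM, 12.4% lower, with a log2 fold change of -0.19 (SE 0.0429 and adjusted p = 0.0346, edgeR). Usp29, a ubiquitin protease family gene that starts on the other strand (chromosome 7, 6730578 to 6967219), measured 19.4 ± 1.44 and 18.99 ± 0.697 CPM (log2 fold change -0.03, SE 0.0693 and adjusted p = 0.908). Zim1, the maternally expressed zinc finger gene downstream of Peg3, measured 41.9, 42, 48.5 and 34.1 CPM in controls and 39.9, 38.4, 40.8 and 29.3 CPM in mutants, and the groups overlapped (adjusted p = 0.683). The call of Peg3 held in 8 of 20 alternatives, with log2 fold changes of -0.23 to -0.13 and adjusted p of 0.00113 to 0.531. It was lost without control replicates 1, 2 or 3 (adjusted p = 0.107, 0.0869 and 0.119), without mutant replicates 1, 2 or 4 (adjusted p = 0.0957, 0.066 and 0.0527) and in the 4 double-positive libraries (-0.13, adjusted p = 0.531). It was also lost with the linear or log2 Y-linked level as a covariate (adjusted p = 0.372 and 0.288), with 1 surrogate variable (0.0922), with limma-voom (0.0539) and without robust estimation (0.0679).

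Peg10 with Sgce and Peg3 with Usp29 were the 2 pairs in the set whose members start on opposite strands within 1000 bases of each other. Their starts in the deposited table lie 99 and 147 bases apart, and both genes of each pair are expressed from the paternal copy. The log2 ratio of the pair's counts within a library does not depend on the scaling between libraries. For Peg10 over Sgce it was 2.5, 2.21, 2.02 and 2.1 in controls and 1.55, 1.44, 1.54 and 1.96 in mutants. Every mutant ratio lay below every control ratio. The means were 2.21 ± 0.209 and 1.62 ± 0.231 (SD, n = 4), a difference of -0.58 with a two-sided exact permutation p of 0.0286, the smallest that 4 against 4 can give, or 0.0572 adjusted over both pairs. For Peg3 over Usp29 it was 4.54, 4.41, 4.74 and 4.43 in controls and 4.33, 4.33, 4.47 and 4.34 in mutants. Here the groups overlapped through mutant replicate 3, and the difference was -0.16 (exact permutation p = 0.0857, two-sided, adjusted 0.0857). These pair tests were added after the values of the genes had been seen. Leaving out each library in turn gave -0.70 to -0.49 for the first pair and -0.20 to -0.09 for the second, and the 4 double-positive libraries gave -0.55 and -0.08.

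**Figure D3:**
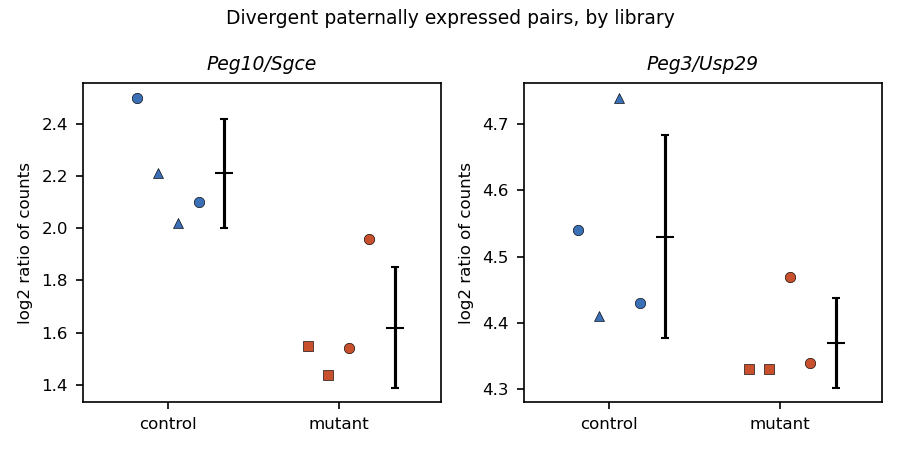
Log2 ratio of counts within each library for Peg10 over Sgce and Peg3 over Usp29, with the mean and SD (black bars, n = 4) of control (blue) and mutant (red) libraries; triangles have Xist with almost no Y-linked counts, squares the opposite, circles both. The Peg10 to Sgce ratio is 2.02 to 2.5 in controls and 1.44 to 1.96 in mutants; the axes do not start at 0.

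Slc38a4, a sodium-coupled amino acid transporter that is expressed from the paternal copy, was the remaining gene that fell (chromosome 15, 96994820 to 97055956, minus strand). It measured 147, 144.5, 148 and 139 CPM in controls and 122, 123, 137 and 124 CPM in mutants. Mutant replicate 3 came within 2 CPM of control replicate 4, and the other 3 mutants lay close together. The mean fell from 144.6 ± 4.13 to 126 ± 7.12 CPM, 12.6% lower, with a log2 fold change of -0.20 (SE 0.0406 and adjusted p = 0.021, edgeR). The call held in 11 of 20 alternatives, with adjusted p of 0.00086 to 0.586. It was lost without control replicates 1, 2 or 3 (adjusted p = 0.0713, 0.0594 and 0.0871), without mutant replicates 1 or 2 (0.071 and 0.0904) and in the 4 double-positive libraries, where the log2 fold change was -0.13 (adjusted p = 0.586). It was also lost with the linear or log2 Y-linked level as a covariate (adjusted p = 0.325 and 0.171) and with 1 surrogate variable (adjusted p = 0.0803).

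**Figure D4:**
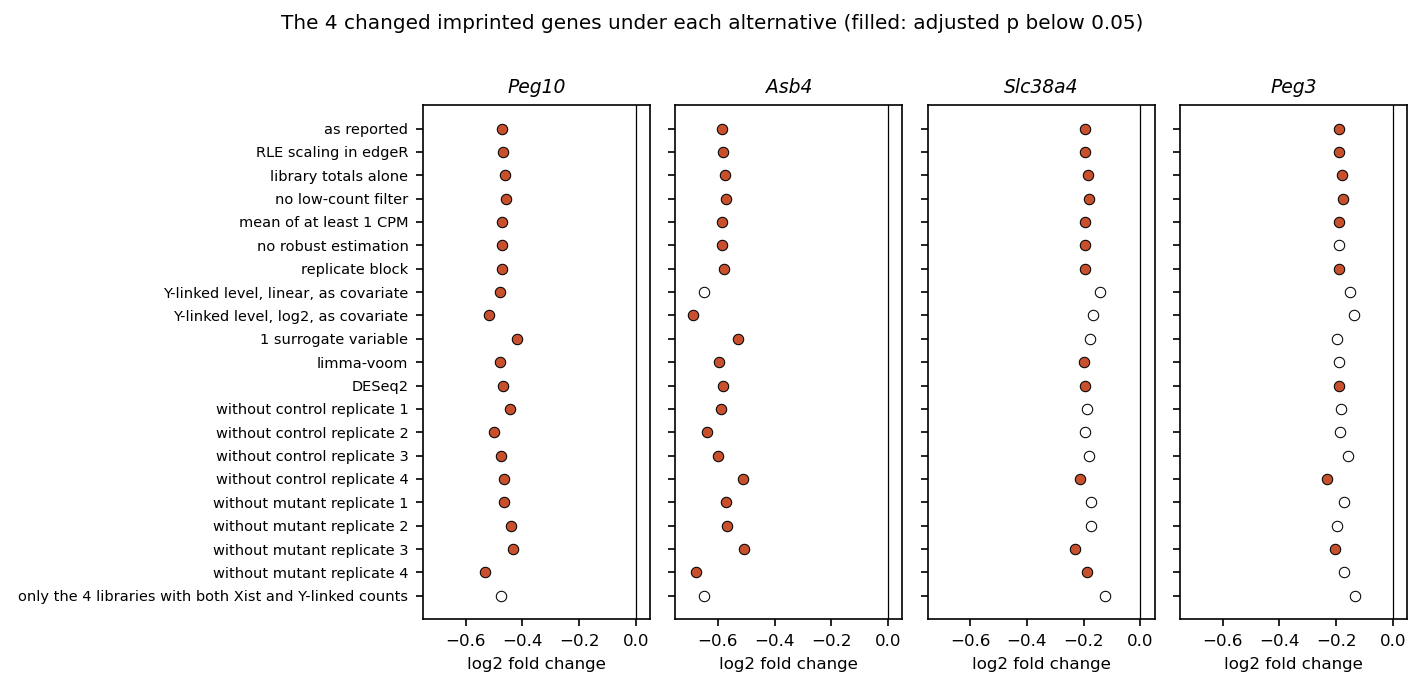
Log2 fold change of Peg10, Asb4, Slc38a4 and Peg3 as reported and under 20 alternatives; filled points have an adjusted p below 0.05. All points lie below 0; Peg10 is filled in 19 alternatives, Asb4 in 18, Slc38a4 in 11 and Peg3 in 8.

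Plagl1, a paternally expressed zinc finger factor known as a regulator of other imprinted genes, had a lower mean in the mutant lung but did not pass the test. It lies on chromosome 10 from 13060504 to 13131694, plus strand. It measured 569, 548, 574 and 518 CPM in controls and 369.9, 351, 454 and 475 CPM in mutants, so the groups did not overlap. The mutants were spread widely: replicates 1 and 2, which had Y-linked counts and almost no Xist, were the lowest. The means were 552 ± 25.5 and 412 ± 60.9 CPM, with a log2 fold change of -0.42 (SE 0.107 and adjusted p = 0.139, edgeR). It passed in 5 of 20 alternatives and not in the other 15, with adjusted p of 0.000373 to 0.439. DESeq2 and limma-voom were among those that put it past the threshold (adjusted p = 0.0138 and 0.0197). In the 4 double-positive libraries the log2 fold change was -0.22 (adjusted p = 0.0991), and with the linear Y-linked level as a covariate -0.25 (adjusted p = 0.439).

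In the Dlk1-Meg3 cluster of chromosome 12, the 3 maternally expressed long non-coding RNAs lay lower in every mutant library than in any control, and none of them passed the test. Meg3 (109541001 to 109571726, plus strand) measured 932.5, 965, 972 and 950.2 CPM in controls and 892, 788, 873 and 903 CPM in mutants. Rian, the host of C/D small nucleolar RNAs (109603808 to 109661716), measured 616, 622, 658 and 622 CPM in controls and 588, 577, 576 and 582.5 CPM in mutants. Mirg, a host of microRNAs (109729764 to 109749460), measured 45.5, 42.3, 47.0 and 45.7 CPM in controls and 41.6, 39.4, 39.97 and 38.4 CPM in mutants. The differences were small: the log2 fold changes were -0.14 for Meg3 (SE 0.038 and adjusted p = 0.0598), -0.12 for Rian (SE 0.031 and adjusted p = 0.0631) and -0.18 for Mirg (SE 0.0484 and adjusted p = 0.0676, edgeR). With DESeq2, Meg3 and Rian passed (adjusted p = 0.0366 and 0.0158) and Mirg did not (adjusted p = 0.076). Over 20 alternatives each, Meg3 passed in 4, Rian in 2 and Mirg in 1. These 3 RNAs lie in a row on the same strand and are known to be read from 1 long transcription unit, so they are not independent observations.

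The groups overlapped for the paternally expressed genes of that cluster. A difference between its maternal and paternal genes was not tested. Dlk1, which encodes a transmembrane protein with EGF repeats, measured 647, 745, 781 and 736 CPM in controls and 785, 809.9, 778 and 760.1 CPM in mutants. Its groups overlapped, and the log2 fold change was 0.11 (SE 0.0467 and adjusted p = 0.321). Rtl1, a retrotransposon-derived gene needed in placental vessels, measured 5.55 ± 0.352 and 5.08 ± 0.326 CPM (log2 fold change -0.13, SE 0.109 and adjusted p = 0.668). In the 4 double-positive libraries Meg3 stood at -0.08, Rian at -0.09 and Mirg at -0.21 on the log2 scale.

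Opposite Rtl1, on the maternal copy, lie 6 microRNA hairpins with 11 mature sequences in RefSeq, each of them a full complement of the Rtl1 transcript. They are known to direct cleavage of Rtl1 RNA, and their 11 seeds (bases 2 to 8) all differ. The 3′ arms of Mir433 and Mir434, the hairpins with the most counts, and of Mir127, the best known of them, are shown with the seed in capitals, from the plus strand of GRCm38: miR-433-3p at chr12:109591781-109591802, miR-127-3p at chr12:109592888-109592909 and miR-434-3p at chr12:109594565-109594586.
miR-433-3p: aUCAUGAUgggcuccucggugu
miR-127-3p: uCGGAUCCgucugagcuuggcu
miR-434-3p: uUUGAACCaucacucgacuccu
Messenger RNA libraries do not measure mature microRNAs, but read pairs on the hairpins' strand were counted. The hairpins held 117 counts in all, 47 in control and 70 in mutant libraries, against 971 counts of Rtl1. Per 100 Rtl1 counts this was 11.6, 11, 17.6 and 6.25 in controls and 10.5, 13.6, 9.01 and 15.7 in mutants, and the groups overlapped. Most lay over Mir433, with 73 counts.

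On distal chromosome 7, Igf2, H19 and Cdkn1c had positive log2 fold changes, and none passed the test. Igf2, the fetal growth factor, measured 172, 208, 194 and 195.5 CPM in controls and 193, 206, 215.5 and 236 CPM in mutants (log2 fold change 0.14, SE 0.0698 and adjusted p = 0.403). Of its 5723 exon bases, 3596 are shared on the same strand with the annotated gene Gm49394. Reads there were counted for neither gene, so the level of Igf2 is too low and cannot be set against other genes. H19 measured 4329, 4601, 4233 and 4216 CPM in controls and 4575, 4670, 4527 and 4594 CPM in mutants (log2 fold change 0.08, SE 0.0288 and adjusted p = 0.194). Cdkn1c, the cell cycle inhibitor p57, measured 374, 371, 415 and 427 CPM in controls and 446, 398, 432 and 439.7 CPM in mutants (log2 fold change 0.11, SE 0.049 and adjusted p = 0.325). All 3 overlapped between the groups. With no filter on low counts Igf2 passed (adjusted p = 0.00778, with 0.00778 to 0.602 over 20 alternatives).

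The rest of the Kcnq1ot1 cluster was low. Kcnq1ot1, the paternally expressed RNA that silences the cluster in cis, measured 27.0 ± 1.68 and 26.1 ± 1.66 CPM (log2 fold change -0.05, SE 0.0652). Phlda2, which limits placental growth, measured 1.53, 0.789, 1.07 and 0.677 CPM in controls and 0.868, 0.84, 0.781 and 1.24 CPM in mutants. Slc22a18, a transporter-like gene, and Ascl2, a factor of trophoblast and intestinal stem cells, measured 0.917 ± 0.333 and 0.74 ± 0.332 CPM in controls and 1.12 ± 0.313 and 0.874 ± 0.0605 CPM in mutants. The log2 fold changes were -0.16, 0.26 and 0.24 for Phlda2, Slc22a18 and Ascl2. At such levels their standard errors were 0.281, 0.291 and 0.298, so only large differences were detectable at this depth.

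In the Snrpn cluster, Snrpn was the 1 gene of the set whose mutant libraries all lay above the controls. It encodes SmN, a core splicing protein most abundant in brain, and is expressed from the paternal copy (chromosome 7, 59982495 to 60140219, minus strand). It measured 16.1, 15.7, 16.5 and 17.1 CPM in controls and 20.9, 19.5, 19.7 and 18.1 CPM in mutants, with a log2 fold change of 0.26 (SE 0.0684 and adjusted p = 0.0588, edgeR). It did not pass there, with adjusted p of 0.0222 to 0.657 over 20 alternatives, and passed in 3 of them. Exon bases shared with Gm38393 (589) and Snurf (216), of 2159, were not counted. Nerve markers had summed levels that were higher in every mutant library, as given above, and their part was not tested.

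The other genes of the Snrpn cluster overlapped between the groups. Ndn, a MAGE family gene, measured 128, 125.5, 129.7 and 138 CPM in controls and 132, 128.5, 132 and 135 CPM in mutants. Peg12, of the FRAT family, measured 30.4, 31.7, 30.5 and 34.2 CPM in controls and 32.0, 32.99, 30.3 and 32.6 CPM in mutants. Their log2 fold changes were 0.02 (SE 0.0365) and 0.01 (SE 0.0555). Magel2 measured 14.99 ± 2.07 and 14.6 ± 1.71 CPM, and Mkrn3 7.63 ± 1.07 and 6.95 ± 0.378 CPM. Ube3a, a ubiquitin ligase imprinted only in neurons, measured 82.1, 82.9, 81.7 and 67.8 CPM in controls and 58.4, 62.7, 74.3 and 76.0 CPM in mutants (log2 fold change -0.22, SE 0.103 and adjusted p = 0.395). Mutant replicates 1 and 2 were the lowest, and in the 4 double-positive libraries the log2 fold change was 0.01. That value leans on control replicate 4 at 67.8 CPM, which lay far below the other controls. The other double-positive control was at 82.1 CPM, and the double-positive mutants were at 74.3 and 76.0 CPM.

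**Figure D5:**
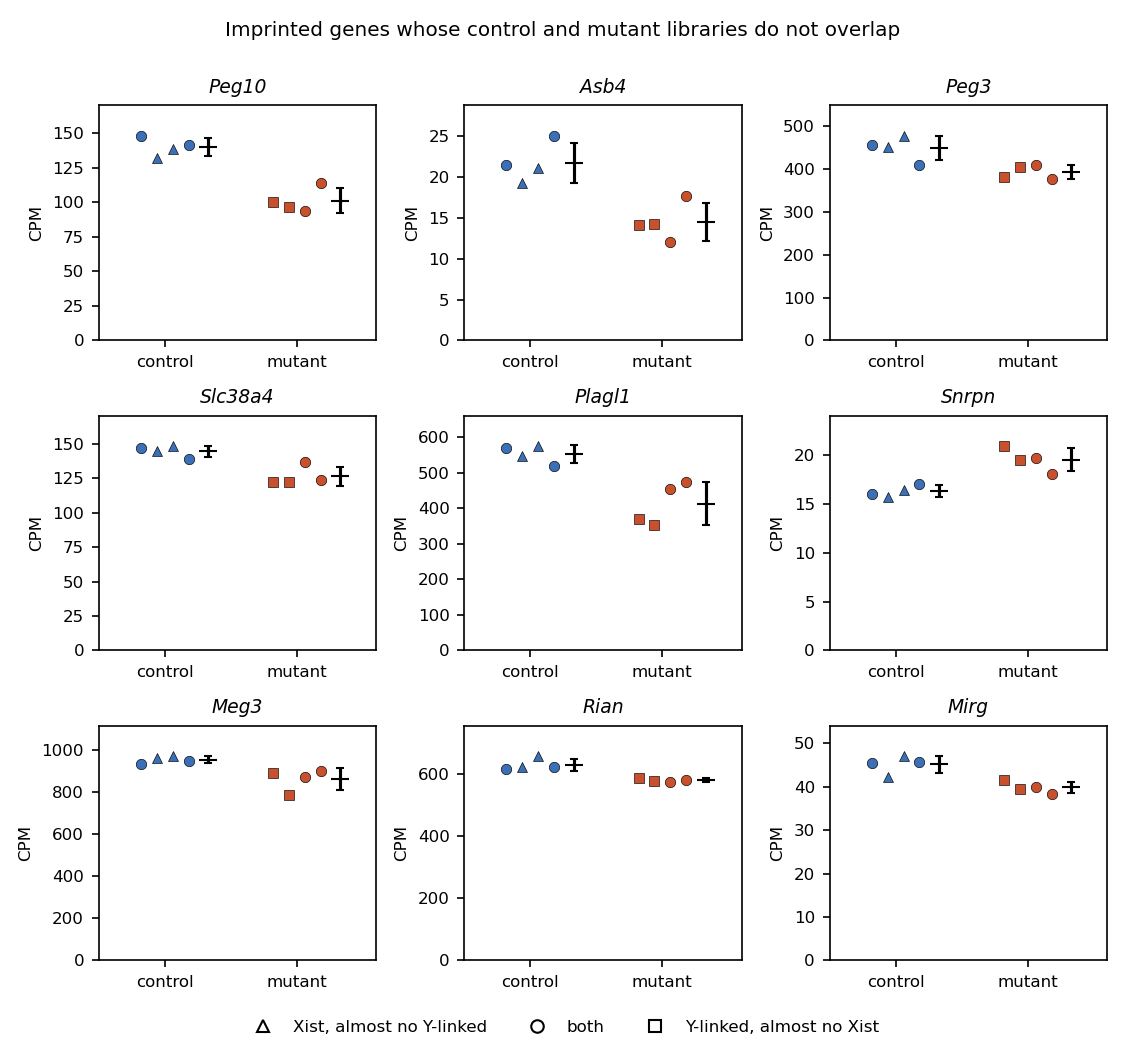
Level (CPM, axes from 0) in each library of the 9 genes of the set whose control (blue) and mutant (red) libraries do not overlap, with the mean and SD (black, n = 4); triangles have Xist with almost no Y-linked counts, squares the opposite, circles both. For Plagl1 the 2 squares lie lowest, at 351 to 369.9 CPM; Snrpn is the 1 gene with higher mutants.

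The remaining genes overlapped between the groups, and none passed the test. Mest, abundant in embryonic mesoderm, measured 1045, 1026, 1139 and 1143 CPM in controls and 1099, 1128, 1084 and 1048 CPM in mutants, with a log2 fold change of 0.00 (0.00201, SE 0.0376). Copg2, a coatomer gene that overlaps Mest on the other strand, measured 72.0, 67.8, 66.5 and 68.3 CPM in controls and 68.3, 79.2, 69.8 and 71.8 CPM in mutants. Counting used the strand, which keeps the 912 exon bases that they share apart. Nap1l5, a retrogene of the nucleosome assembly family, measured 6.71, 4.12, 5.08 and 4.96 CPM in controls and 4.46, 3.65, 2.98 and 4.67 CPM in mutants (log2 fold change -0.42, SE 0.162 and adjusted p = 0.239). Its log2 fold change was the most negative among these remaining genes.

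The receptor and adaptor genes that restrain IGF signalling had small negative log2 fold changes. Igf2r, the maternally expressed receptor that clears IGF2, measured 499, 495, 529 and 480.4 CPM in controls and 457, 466.5, 494 and 479 CPM in mutants (log2 fold change -0.08, SE 0.0361 and adjusted p = 0.335). Airn, the antisense RNA that silences it in cis, measured 17.9, 15.6, 18.2 and 16.7 CPM in controls and 17.3, 17.5, 16.2 and 14.8 CPM in mutants (adjusted p = 0.825). Grb10, an adaptor that dampens insulin and IGF receptors, measured 1418, 1558, 1545 and 1478 CPM in controls and 1310, 1469, 1532 and 1436 CPM in mutants (log2 fold change -0.06, SE 0.0439 and adjusted p = 0.589). The groups overlapped for all 3, and the means of Igf2r differed by more than the SD of either group.

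The other imprinted genes that were listed outside a cluster, Slc38a4 apart, did not pass the test. Gnas, the stimulatory G protein alpha subunit, measured 1844, 1784, 1799 and 1832 CPM in controls and 1877, 1908, 1841 and 1868 CPM in mutants (log2 fold change 0.05, SE 0.0265). Its complex locus makes products of either parental copy, which the gene count adds up. Nnat, a small membrane proteolipid, measured 303, 297, 327 and 339 CPM in controls and 306, 279.8, 294 and 302 CPM in mutants (log2 fold change -0.10, SE 0.0429 and adjusted p = 0.306). Zdbf2 measured 15.4, 16.2, 17.5 and 13.53 CPM in controls and 14.98, 16.6, 14.6 and 16.2 CPM in mutants. Trappc9, a maternally expressed subunit of a vesicle tethering complex, measured 45.8, 43.0, 42.2 and 43.3 CPM in controls and 44.9, 47.5, 43.5 and 49.3 CPM in mutants. Impact, which regulates GCN2 signalling, measured 54.4, 45.1, 51.5 and 48.3 CPM in controls and 50.3, 45.9, 47.1 and 44.1 CPM in mutants.

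Further imprinted genes outside the set, and the genes that keep imprints, were read from the same fit. Of 38 other imprinted genes 33 were tested, 1 rose and 0 fell (3.03%, near the 1.49% of all tested genes), with 23 positive and 10 negative log2 fold changes and a median of 0.05. The gene that rose was Ddc, the decarboxylase of the dopamine and serotonin pathways, which lies beside Grb10. It measured 12.9, 12.3, 12.03 and 12.5 CPM in controls and 14.6, 16.4, 14.6 and 15.6 CPM in mutants, and the groups did not overlap. The group means were 12.4 ± 0.362 and 15.3 ± 0.88 CPM, and Ddc rose by 0.30 on the log2 scale (SE 0.0731 and adjusted p = 0.0459, edgeR). Groups also did not overlap for Pon2 and Herc3, with higher mutants, and Nap1l4, with lower ones, named after their values were seen. Pon2 measured 28.2 ± 1.55 and 32.7 ± 1.04 CPM (log2 fold change 0.22, SE 0.0561 and adjusted p = 0.0558, edgeR). Herc3 and Nap1l4 had log2 fold changes of 0.15 and -0.06 (adjusted p = 0.39 and 0.364, edgeR). With Ddc, the genes whose groups did not overlap were 4 of 33 (12.1%), against 7.37% of all tested genes. The call of Ddc was lost in the 4 double-positive libraries and without any 1 library other than control replicate 4, where 0 genes of the list passed in each.

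Of 18 genes that set or keep imprints 17 were tested and 0 passed, where 1.49% of all tested genes did. At an unadjusted p below 0.05 there was 1 of the 17, where 13.9% of all tested genes had such a p (edgeR). Trim28 measured 1095 ± 17.1 and 1091 ± 12.3 CPM, and Uhrf1, which recruits the maintenance methyltransferase, 433 ± 16.9 and 406 ± 20.8 CPM. Of 8 IGF receptor genes and binding proteins of IGF2 messenger RNA 0 passed, 2 at an unadjusted p below 0.05 (edgeR). Over both lists 3 of 25 tested genes had such a p (12%), near the share of all tested genes. In 2 of the 8 (25%, against 7.37% of all tested genes) the groups did not overlap, both lower: Igf2bp2 and Igf1r, the latter named after its values were seen. Igf1r, the receptor through which IGF2 signals, measured 120.5 ± 2.36 and 113 ± 3.43 CPM (log2 fold change -0.09 with SE 0.0354 and adjusted p = 0.216). Igf2bp2 measured 238.5 ± 2.9 and 230.1 ± 4.63 CPM, and Igf2bp1 159 ± 6.33 and 153 ± 2.65 CPM. DESeq2 and limma-voom also called 0 genes of these 2 lists. Medians were -0.05 and -0.06 on the log2 scale, with 3 positive and 14 negative values for the imprint genes and 1 positive and 7 negative for the IGF genes.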

How the data were processed

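RNA from mouse lung at E13.5 was measured in 8 libraries, 4 control and 4 mutant, made with a stranded messenger RNA kit, per the labels' protocols. The authors deposited a table of raw counts of read pairs per gene, without normalization, made with featureCounts 1.6.4 (strand option 2) on GENCODE vM25, per the file headers. The header sets neither the option for multi-mapping reads nor that for reads overlapping several genes, so such reads were not counted. STAR, DESeq2 and the build GRCm38 are named in the submitters' processing notes. The deposited table gave the coordinates (GRCm38) and exon lengths. Symbols came from GENCODE vM21 and paired with 55141 of 55401 genes.

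Totals were 17799899 to 48679134 counts per library, and 3 counts are the floor of detection, which covers counting error only. All 8 libraries entered 1 fit in edgeR 4.0.16 (R 4.3.3): filterByExpr kept 15788 genes with 99.87% of counts, libraries were scaled by TMM, and a robust two-sided quasi-likelihood F test without covariates was adjusted by Benjamini-Hochberg over all tested genes (threshold 0.05). SE is the log2 fold change over the square root of F. CPM are TMM-scaled. DESeq2 1.42.0, limma-voom (limma 3.58.1), a surrogate variable (sva 3.50.0), Y-linked levels as covariates, other scalings and filters, and leaving out each library served as alternatives. Pair ratios were tested by exact permutation. The fit was tested on simulated data. No libraries of a group were duplicates.

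The members, gene lists and tests were chosen with earlier results of these data known. Values in every library are given for genes that passed or whose groups did not overlap and for the 2 of highest level per length in each cluster. From other lists the passing genes are named, or else the 2 of highest level. The values in every library of Sgce and Ube3a were added after they were seen. Promoter and microRNA sequences came from RefSeq on GRCm38.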

Additional observations from a re-analysis of the deposited data

Results flagged for a closer look

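In 4 of 78 groups of 4 libraries, 1 library lay far from the other 3: its gap to the nearest was over Dixon's critical share of the whole range at the 95% level, which chance gives in about 1 of 20 groups. Magel2 measured 12.07 CPM in mutant replicate 1 and 15.2 to 15.68 CPM in the other mutants. Ube3a measured 67.77 CPM in control replicate 4 and 81.67 to 82.87 CPM in the other controls. Rian measured 658 CPM in control replicate 3, above 615.6 to 622.4 CPM in the other controls. Slc38a4, which fell, measured 137 CPM in mutant replicate 3 and 122.1 to 123.8 CPM in the other mutants. Without that library its log2 fold change was -0.23 (adjusted p = 0.00693, edgeR, with 0.00086 to 0.586 over 20 alternatives).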

How the results depend on the processing

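As reported, 236 of all tested genes, 4 of the 39 tested imprinted genes and 1 of the other imprinted genes passed. With no low-count filter these counts were 791, 7 and 2, with DESeq2 361, 7 and 2, with the linear Y-linked level as a covariate 68, 1 and 0, with its log2 level 95, 2 and 0, and in the 4 double-positive libraries 87, 0 and 0, a fit with fewer samples. At an unadjusted p below 0.05, those 4 libraries gave 9 imprinted (23.1%) and 3 other imprinted genes (9.09%), against 8.66% of the 15924 genes tested there. Without robust estimation 142 of all genes passed and 0 of the other imprinted genes, with 1 surrogate variable 96 and 0, and with limma-voom 0 of the other imprinted genes, against 2 with library totals alone. Leaving out each library in turn gave 96 to 479 for all genes, 2 to 6 for the imprinted genes and 0 to 1 for the others. The 2 were without control replicates 1, 2 or 3 or mutant replicates 1 or 2, and the 6 without mutant replicate 4. For all genes, leaving out control replicates 1, 2 or 3 gave 100, 121 or 96, mutant replicate 2 gave 118, and mutant replicate 4 gave 479. The causes were not tested. Imprint maintenance and IGF genes gave 0 throughout (edgeR, DESeq2 and limma-voom). As reported, 3 of these 25 genes had an unadjusted p below 0.05 (12%, against 13.9% of all tested genes, edgeR). Peg10, Asb4, Slc38a4, Peg3, Plagl1, Meg3, Rian, Mirg and Snrpn kept their sign in all 20 alternatives. With the replicate number as a block, 541 of all genes, 8 imprinted genes (1 higher, Snrpn, and 7 lower) and 2 of the others passed. Whether the numbers pair the libraries was not settled. Deviations of same-numbered libraries correlated at 0.012 to 0.18, and 3 of 4 numbers correlated best with their own. Low counts limit Calcr, Tfpi2, Phlda2, Slc22a18 and Ascl2, and Calcr and Phlda2 changed sign under some alternatives. Sign changes also occurred in genes with more counts: Zdbf2, Mest, Magel2, Peg12, Grb10, Ube3a, Usp29, Ndn, Kcnq1ot1 and Ppp1r9a.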
